A study of Mus musculus with 27 samples.

Results

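The miRNAs described are 9 of the 1842 entries of the count table and come from 5 mouse hairpins: mmu-miR-328-3p, mmu-miR-342-5p and mmu-miR-342-3p, mmu-miR-423-5p and mmu-miR-423-3p, mmu-miR-744-5p and mmu-miR-744-3p, and mmu-miR-1843a-5p and mmu-miR-1843a-3p. The species prefix is left out below. They were chosen from the values themselves, because 1 arm of each hairpin was lower in ischemic than in opposite cortex at 24 h. That contrast, and every contrast that shares its libraries, is therefore given as a description. Counts past a test threshold are printed for these contrasts, but nothing is read from them. Tests are given for 3, 6 and 12 h. All 9 passed the filter on low counts, which kept 1470 entries.

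The study followed small RNAs in mouse cortex after middle cerebral artery occlusion, a stroke model made by closing the main artery of the lateral cortex with a filament. The animals were wild-type C57BL6 mice, an inbred laboratory strain, 7 to 8 weeks old. In 24 libraries the right artery had been blocked for 35 min, and cortex was taken after 3, 6, 12 or 24 h of reperfusion from the occluded (ipsi) or the opposite (contra) hemisphere. In 3 sham libraries the arteries had been exposed and left open. Each of the 9 groups, written here as sham, ipsi_3h, contra_3h and so on, held 3 libraries, and replicate numbers mark the day of surgery. The sources used here do not say whether ipsi and contra libraries of 1 number share an animal. Libraries held 856591 to 1903416 counts. Sham replicate 2 and ipsi_6h replicate 3 stood apart from the rest by their epithelial miRNAs (29850 and 25490 CPM, against 960.6 or less elsewhere in the sham, 6 h ipsi and 24 h groups).

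A miRNA hairpin is cut from a longer transcript by Drosha and then by Dicer, which leaves a short duplex of a 5p arm and a 3p arm. One arm is usually kept in an Argonaute protein as the guide and the other is mostly degraded, so arms cut from the same transcript can differ widely in level. Many hairpins lie inside introns of protein-coding genes and are made from the transcript of that host gene. Bases 2 to 8 of the mature strand, the seed, pair with target mRNAs.

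The mature sequences are shown because they separate these miRNAs from each other and show where reads of near-identical entries could be shared. They are RefSeq sequences of GRCm38.p6, written 5′ to 3′ with the seed in capitals. Of the 9 miRNAs, 8 had an entry, all but miR-328-3p.
miR-342-5p: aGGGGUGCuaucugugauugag
miR-342-3p: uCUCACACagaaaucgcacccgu
miR-423-5p: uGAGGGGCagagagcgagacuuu
miR-423-3p: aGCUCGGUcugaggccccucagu
miR-744-5p: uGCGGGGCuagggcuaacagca
miR-744-3p: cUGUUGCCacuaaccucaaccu
miR-1843a-5p: uAUGGAGGucucugucugacu
miR-1843a-3p: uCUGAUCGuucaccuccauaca
The 8 seeds all differ, so these miRNAs form no seed family. Only the seed of miR-423-5p recurred in another entry of the table, miR-6921-5p. GC content ran from 45.5 to 65.2%, with a median of 51.1% against 52.4% over the 1587 entries of the table with a sequence.

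The miR-1843a arms have a close relative, miR-1843b, made from another chromosome.
miR-1843b-5p: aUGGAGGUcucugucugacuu
miR-1843b-3p: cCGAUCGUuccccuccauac
The 5p arms of both share a run of 20 bases that starts at base 2 of miR-1843a-5p and at base 1 of miR-1843b-5p, and this shift by 1 base gives them different seeds. The 3p arms share an unbroken run of only 9 bases, but before it, past a mismatched base, lies a further matching stretch. The sources used here do not say how reads matching several entries were assigned, so the counts of the 5p arms of miR-1843a and miR-1843b are uncertain to that extent. The same holds for their 3p arms if reads with a mismatch were counted.

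In the GRCm38 annotation 4 of the 5 hairpins lie in an intron of a protein-coding gene on the same strand. Mir342 (chr12:108658620-108658718, plus strand) lies in Evl, which encodes an actin regulator of the Ena/VASP family. Mir423 (chr11:77078064-77078172, minus strand) lies in Nsrp1, which encodes a splicing regulator of nuclear speckles. Mir744 (chr11:65734733-65734832, minus strand) lies in Map2k4, which encodes a kinase upstream of JNK. Mir1843a (chr12:80391613-80391677, minus strand) lies in Dcaf5, which encodes a substrate receptor of a cullin ubiquitin ligase, and also overlaps a non-coding transcript annotated in that intron. Mir328 (chr8:105308364-105308460, minus strand) overlaps part of an exon of Elmo3, but on the opposite strand, and no gene on its own strand contains it. The name host-gene miRNA therefore holds for 4 of the 5 hairpins, and the host mRNAs themselves were not measured here.

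All 9 miRNAs were well within the counted range of cortex. Levels are CPM, counts over the library's effective size, in which a TMM factor adjusts the total so that most entries match between libraries. The mean over 27 libraries was 3154 CPM for miR-328-3p and 3081 CPM for miR-744-5p, ranks 47 and 48 of 1470 entries. miR-1843a-5p followed at 845.6 CPM, miR-423-3p at 671.7, miR-423-5p at 615.8, miR-342-3p at 356.1 and miR-1843a-3p at 225.7. The least abundant were miR-342-5p at 97.98 and miR-744-3p at 43.45 CPM. The lowest count of any of the 9 in a library was 30, for miR-744-3p, and the highest was 7253, for miR-328-3p. Thus 7 of the 9 were among the 286 entries with a mean of at least 100 CPM, called abundant entries here.

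**Figure D1:**
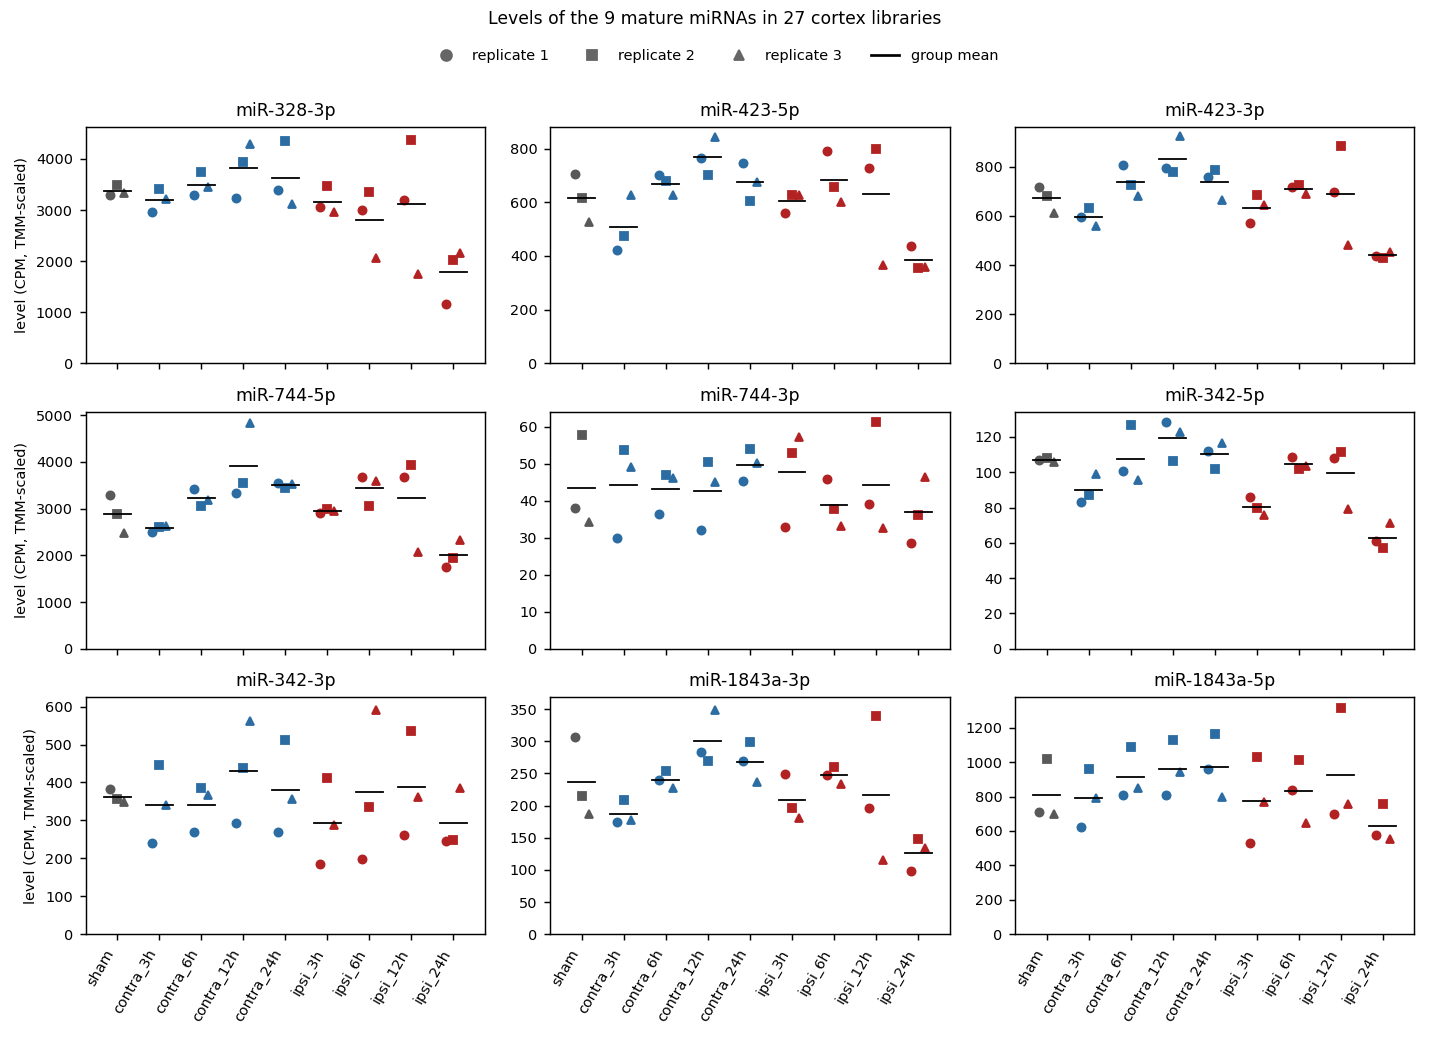
Level of each of the 9 miRNAs in every library, in TMM-scaled CPM on a linear axis from 0, by group (grey sham, blue opposite cortex, red ischemic cortex). Marker shapes give the replicate number and bars the group mean. The ipsi_24h libraries lie below all contra_24h libraries for 7 of the 9, and ipsi_12h replicate 3 lies low for most.

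The values that chose the miRNAs are those of 24 h. For miR-328-3p the 3 ipsi_24h libraries were at 1172, 2023 and 2152 CPM and the contra_24h libraries at 3402, 4352 and 3125. The sham libraries were at 3292, 3500 and 3344 CPM. The groups did not overlap, and replicate 1 of ipsi_24h was the lowest of all. The log2 fold change of ipsi_24h over contra_24h was -1.02 ± 0.27 (SE), a ratio of 0.491.

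miR-744-5p was at 1755, 1951 and 2336 CPM in ipsi_24h and at 3548, 3449 and 3530 in contra_24h. Its contra_24h libraries lay close together and well apart from the ischemic ones, with means of 3509 ± 52.7 and 2014 ± 296 CPM (SD, n = 3). The log2 fold change was -0.80 ± 0.22. Its partner miR-744-3p was at 28.7, 36.1 and 46.4 CPM in ipsi_24h and at 45.3, 53.9 and 50.2 in contra_24h. The groups overlapped, and the log2 fold change was -0.43 ± 0.32.

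Both arms of miR-423 were lower to about the same extent. miR-423-5p was at 436, 356 and 359 CPM in ipsi_24h and at 747, 604 and 676 in contra_24h, a log2 fold change of -0.82 ± 0.25. miR-423-3p was at 439, 429 and 454 CPM against 759, 786 and 666, a log2 fold change of -0.74 ± 0.21. Neither arm overlapped between the hemispheres or with sham, where miR-423-5p was at 528 CPM or above and miR-423-3p at 613 or above.

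For miR-342 the scarcer arm had the larger difference. miR-342-5p was at 60.8, 57.0 and 71.1 CPM in ipsi_24h and at 112, 102 and 117 in contra_24h, with sham at 107, 108 and 106. The 3 ischemic libraries lay apart from the other 6, with a log2 fold change of -0.81 ± 0.24 against contra_24h. miR-342-3p was at 246, 249 and 385 CPM in ipsi_24h and at 271, 511 and 356 in contra_24h. These overlapped, and the log2 fold change was -0.37 ± 0.38, smaller than its own standard error.

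miR-1843a-3p was at 98.4, 148 and 134 CPM in ipsi_24h and at 269, 300 and 237 in contra_24h. This was the lowest ratio of the 9, 0.473, with a log2 fold change of -1.08 ± 0.30 and no overlap. miR-1843a-5p was at 577, 757 and 553 CPM against 959, 1164 and 800, a log2 fold change of -0.63 ± 0.29. Its libraries did not overlap with contra_24h, but did with sham. The related miR-1843b-5p had -0.73 ± 0.22 and miR-1843b-3p had -0.14 ± 0.27, that is, the 5p arms had like values and the 3p arm of miR-1843b was close to level. A test of these differences was not made.

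Counting these values, 6 of the 9 miRNAs were below the edgeR threshold of an adjusted p of 0.05 as lower in ipsi_24h, where 1.43% of the 1470 entries were. With the day of surgery as a block 7 of the 9 were, and the lower entries numbered 96 in place of 21. The groups did not overlap for 7 of the 9, against 28.2% of all entries. Without ipsi_24h replicate 1 the count of 6 became 0, with 3 lower entries in all. Without replicates 2 or 3 of ipsi_24h it became 3 and 5 (16 and 23 in all). Without replicates 1, 2 or 3 of contra_24h it became 3, 3 and 4 (4, 11 and 22 in all). With total counts in place of TMM it was 0 (0 in all), and with TMM factors from abundant entries 1 (4 in all). With no filter on low counts it was 3 (7 in all), and with DESeq2 6 (36 in all). Since the miRNAs were chosen on this contrast, nothing is read from these counts. In the fit as reported the 3 outside the threshold were miR-342-3p, miR-744-3p and miR-1843a-5p, and with the block miR-1843a-5p was inside it.

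Against sham, which shares the ipsi_24h libraries, the 9 log2 fold changes of ipsi_24h ran from -0.92 for miR-328-3p to -0.23 for miR-744-3p. Here 3 of the 9 were below the threshold as lower, where 1.36% of all entries were, and 6 of the 9 did not overlap, against 28.9%. Nothing is read from these counts either, since they rest on the libraries used in the choice. The contra_24h libraries were close to sham, with log2 fold changes from 0.04 to 0.28 and 1 of the 9 without overlap, against 7.07% of all entries.

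The size of the 24 h values depended on how the libraries were scaled. Under TMM the median log2 fold change was -0.80 over the 9 miRNAs, -0.46 over the 286 abundant entries and 0.08 over all 1470. With total counts alone these medians were -0.32, 0.03 and 0.57, so the whole distribution moved up by about the same amount. Relative to the median of the abundant entries 7 of the 9 were lower under both scalings, all but miR-342-3p and miR-744-3p. The log2 fold changes of these turned to 0.13 and 0.06 with total counts. A common shift largely keeps such an order, and the 9 were chosen on this contrast, so nothing is read from the 7 of 9. With total counts the number that did not overlap between the hemispheres was 3 of 9, namely miR-328-3p, miR-423-3p and miR-1843a-3p. The share of all entries was not counted on this scale, so nothing is read from this number.

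**Figure D2:**
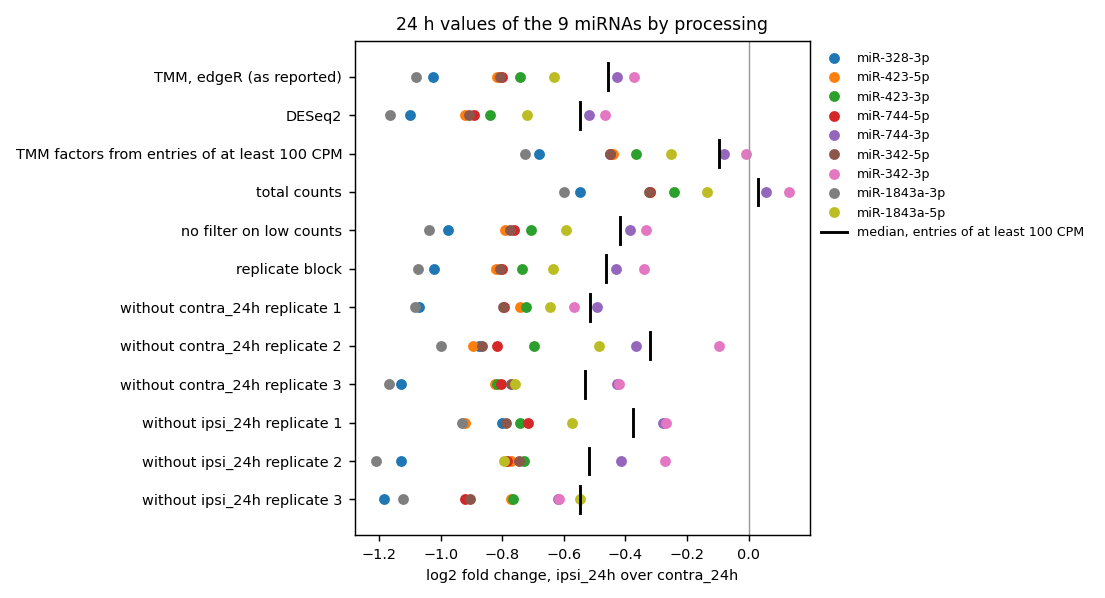
Log2 fold change of ipsi_24h over contra_24h for each of the 9 miRNAs (coloured points) under each way of processing (rows), with the median of the 286 entries of at least 100 CPM as a black bar. The points move with the bar, and miR-1843a-3p and miR-328-3p lie furthest to the left in most rows.

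Other miRNAs of host genes had a median log2 fold change close to that of abundant entries at 24 h. A list of 42 outside the 9, of which 30 lie in an intron of a protein-coding gene and 9 in an exon, had a median log2 fold change of -0.47, with 36 of 42 below 0, 7 with an unadjusted p under 0.05 and 0 past the threshold in edgeR. Of the 286 abundant entries 222 were below 0 and 112 had an unadjusted p under 0.05. In edgeR 20 of the 286 passed the threshold as lower and 32 as higher. The most abundant of the 42 were miR-128-3p at -0.63, miR-26a-5p at -0.60, miR-191-5p at -0.38 and miR-30e-5p at -0.87. Entries of at least 100 CPM in introns of protein-coding genes had a median of -0.45 (90 entries), close to the -0.47 of those outside genes (72 entries) and the -0.43 of those in exons (51 entries). Those in introns of other genes were at -0.39 (24 entries), and those with loci of different classes at -0.59 (15 entries). The medians of the 3 classes named first lay close together, and the lower median of the 9 is fixed by how they were chosen.

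Cortex is a mixture of cells, and in such bulk samples fewer cells of a type and less RNA per cell cannot be told apart. The summed level of neuron-enriched miRNAs (8 of 8 in the table), miR-124-3p and miR-128-3p among them, was 74060 to 108100 CPM in ipsi_24h and 115500 to 170700 in contra_24h, with no overlap. miR-128-3p is also in the list of host-gene miRNAs above. The sum of vessel miRNAs (3 of 4 in the table) was 9449 to 16800 against 15350 to 39520 CPM, and that of leukocyte and microglia miRNAs (6 of 6) was 1033 to 1577 against 1444 to 2077 CPM, both with overlap. Oligodendrocyte miRNAs (3 of 4) summed to 1026 to 1874 against 1860 to 2624 CPM and erythrocyte miRNAs (2 of 3) to 90.3 to 120.5 against 104.7 to 166.7, with overlap as well. Choroid plexus miRNAs (2 of 2), at 2236 to 2812 against 2830 to 5328 CPM, and muscle miRNAs (3 of 3), at 82.7 to 121.6 against 181.8 to 199 CPM, were lower with no overlap. Epithelial miRNAs (8 of 8) were higher with no overlap, at 569 to 960.6 against 443.2 to 498.3 CPM. Of all these markers, miR-1a-3p of the muscle list was at 0 in 2 libraries, and miR-206-3p, miR-200c-3p and miR-96-5p in 1 each. Sums of 7 of the 8 lists thus had lower medians in the same libraries as the 9 miRNAs, and their part in the values was not tested. All these sums are on the TMM scale, where the median log2 fold change of the abundant entries was itself -0.46, against 0.03 with total counts. They were not taken with total counts, so no change of cells is read from them.

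At 3, 6 and 12 h, times not used in the choice, no difference between the hemispheres passed the test for any of the 9. At 3 h the log2 fold changes of ipsi over contra ran from -0.22 for miR-342-3p to 0.25 for miR-423-5p, with standard errors of 0.21 to 0.38. None of the 9 passed in edgeR's quasi-likelihood test, as was true of 0% of all entries, and none had an unadjusted p under 0.05. The groups did not overlap for 1 of the 9, miR-744-5p, against 9.05% of all entries. It was at 2911, 2995 and 2943 CPM in ipsi_3h and at 2492, 2610 and 2630 in contra_3h, that is, slightly higher on the ischemic side (log2 fold change 0.20 ± 0.22).

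At 6 h the range was -0.32 for miR-328-3p to 0.14 for miR-342-3p, with 0 of 9 past the threshold (0% of all entries) and 0 without overlap (10.7% of all entries). miR-328-3p was at 3001, 3351 and 2061 CPM in ipsi_6h and at 3301, 3751 and 3450 in contra_6h. Its replicate 3 stood apart from the other 5 libraries. The same library was the one with 25490 CPM of epithelial miRNAs (8 of 8 in the table), against 392 to 527 in the other 2 of its group. Without it the log2 fold change of miR-328-3p was -0.14 in place of -0.32, and again 0 of 9 passed. In that library miR-342-3p, at 592 CPM, had its highest level of the 27.

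**Figure D3:**
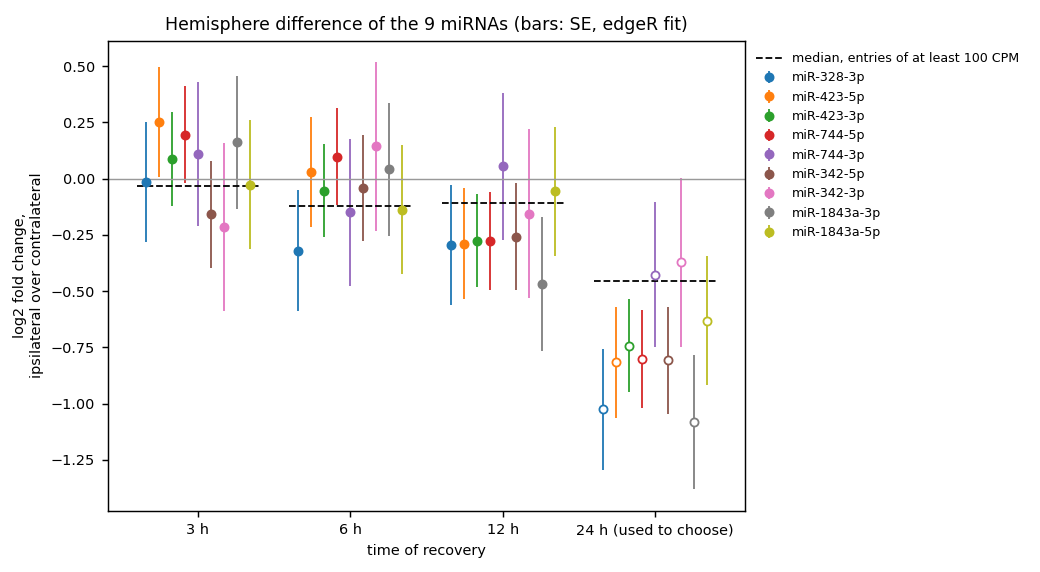
Log2 fold change of ischemic over opposite cortex for each of the 9 miRNAs at 3, 6, 12 and 24 h, with the standard error of the edgeR fit as bars and the median of the abundant entries as dashed lines. Values at 3, 6 and 12 h lie between -0.47 and 0.25. The 24 h values (open symbols) were used to choose the miRNAs.

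At 12 h 8 of the 9 log2 fold changes were below 0, as were 202 of the 286 abundant entries and 779 of all 1470. The median was -0.28 for the 9 and -0.11 for the abundant entries. The range was -0.47 for miR-1843a-3p to 0.05 for miR-744-3p, the lowest edgeR adjusted p was 0.748, and none of the 9 had an unadjusted p under 0.05. Of all entries 4.35% passed, each of them higher in ipsi_12h. The groups overlapped for all 9, while 8.71% of all entries did not overlap.

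These 12 h values turned mostly on replicate 3 of ipsi_12h. miR-328-3p was at 3204, 4378 and 1758 CPM in ipsi_12h, and at 3230, 3938 and 4288 in contra_12h. miR-744-5p was at 3676, 3927 and 2065 CPM against 3329, 3555 and 4826. miR-423-5p was at 729, 797 and 366 CPM against 767, 701 and 843. In each case replicates 1 and 2 of ipsi_12h lay near or within the range of the opposite cortex and replicate 3 lay near the level of ipsi_24h. Counted from the lowest of 27, that library ranked 2 for miR-328-3p and miR-1843a-3p, 3 for miR-423-5p and miR-744-5p, 4 for miR-423-3p and miR-744-3p, and 5 for miR-342-5p. It was not low for miR-1843a-5p, rank 9, or for miR-342-3p, rank 16.

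The ratio of ipsi to contra libraries of the same day of surgery shows the same. At 12 h the median log2 ratio over the 9 was -0.16 for replicate 1, 0.19 for replicate 2 and -0.94 for replicate 3, where all 9 were below 0. At 24 h the 3 medians were -0.79, -0.84 and -0.55. With total counts the 12 h medians were -0.01, -0.01 and -0.44, with 7 of 9 below 0 in replicate 3. The 24 h medians on that scale were -0.16, -0.33 and -0.22. Without replicate 3 of ipsi_12h the median of the fitted 12 h differences was -0.05, and without replicate 2 of ipsi_12h it was -0.47. In both fits 0 of the 9 passed, with a lowest edgeR adjusted p of 0.998 and 0.0564. Replicate 3 of contra_12h was itself high, with the 9 summing to 12903 CPM against 9667 and 10961 in replicates 1 and 2. Without that contra_12h library the median was -0.19.

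A joint edgeR test over 3, 6 and 12 h found 0 of the 9 (2.65% of all entries), with adjusted p of 0.999 for each. The change of the hemisphere difference from 3 to 12 h passed for 0 of the 9 and for 0% of all entries. It was furthest from 0 for miR-1843a-3p (-0.63 ± 0.42), miR-423-5p (-0.54 ± 0.35) and miR-744-5p (-0.47 ± 0.31), each within 2 standard errors of 0.

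Compared with sham, ischemic cortex had log2 fold changes of -0.41 to 0.13 at 3 h, -0.27 to 0.26 at 6 h and -0.13 to 0.19 at 12 h. In edgeR 0 of 9 passed at each time, where 0%, 0% and 5.44% of all entries did (at 12 h 4.76% higher and 0.68% lower), and 1, 0 and 0 of the 9 did not overlap with sham, against 10.5%, 9.05% and 14.8%. Opposite cortex had -0.34 to 0.02 at 3 h, -0.09 to 0.18 at 6 h and -0.03 to 0.44 at 12 h, again with 0 of 9 and 0% of all entries each time, and 1, 0 and 2 of the 9 did not overlap, against 6.53%, 8.71% and 11%. The 1 miRNA apart from sham at 3 h was miR-342-5p in both hemispheres, at 85.8, 79.7 and 75.6 CPM in ipsi_3h and 83.1, 87.3 and 98.9 CPM in contra_3h, below the sham libraries given above. Those at 12 h were miR-423-3p and miR-744-5p, higher in contra_12h. These 6 comparisons share the 3 sham libraries. None of the 9 had an unadjusted p under 0.05 in any of them, and without sham replicate 2 again 0 of 9 passed in each.

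contra_12h had the highest mean for 7 of the 9, all but miR-744-3p and miR-1843a-5p, where contra_24h had it. These were miR-423-5p (770 ± 71.3 CPM), miR-423-3p (832 ± 80.3), miR-744-5p (3904 ± 807), miR-328-3p (3819 ± 539), miR-342-5p (119 ± 11.5), miR-342-3p (431 ± 136) and miR-1843a-3p (300 ± 42.5, SD, n = 3 each). Its mean lay above sham by 0.44 ± 0.22 on the log2 scale for miR-744-5p and by less for the others, none of which passed (lowest edgeR adjusted p = 0.968). The median log2 fold change of contra_12h over sham was 0.25 for the 9 and 0.24 for the 286 abundant entries, of which 44 were below 0. With total counts the median of the 9 was 0.04. How many of all entries had their highest mean in contra_12h was not counted, so nothing is read from the 7 of 9. The lowest mean was that of ipsi_24h for all 9, which is partly fixed by how they were chosen, so nothing is read from it. No groups compared at 3, 6 or 12 h differed past the threshold for any of the 9, so the order of these groups is not resolved.

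The arms of each hairpin were then set against each other. The share of the 5p arm in the counts of a hairpin needs no scaling between libraries, although ligation and amplification can favour one arm over the other in every library. miR-328 was nearly all 3p, with a 5p share of 0.07 to 1.66% over the 27 libraries. miR-744 was nearly all 5p, with 97.99 to 99.08%. miR-423 was balanced, with 41.53 to 52.83% and a mean of 47.6% ± 2.85 (SD, n = 27). miR-342 was mostly 3p, with a 5p share of 14.92 to 35.28%, and miR-1843a mostly 5p, with 67.96 to 86.74%. No library changed which arm led, except for miR-423, whose arms were close to equal.

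At 3, 6 and 12 h the arm ratios of the hemispheres overlapped for all 5 hairpins and none passed the edgeR test. Of the 531 hairpins tested, 0%, 0% and 3.77% passed at these times, and 9.04%, 8.66% and 12.6% did not overlap. The widest of the changes at 12 h was 0.49 ± 0.33 on the log2 scale for miR-1843a (5p over 3p, edgeR adjusted p = 0.653), followed by -0.34 ± 0.29 for miR-744 (0.80).

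The 24 h arm ratios share the libraries of the choice and are given without a test. For miR-328 the 5p share was 1.66, 0.44 and 0.46% in ipsi_24h and 0.25, 0.17 and 0.19% in contra_24h. These shares rest on 29, 13 and 13 counts of miR-328-5p against 9, 9 and 5, and the 95% exact binomial interval of the highest was 1.12 to 2.38%. The scarce 5p arm was thus higher while the abundant 3p arm was lower, a log2 change of the ratio of 1.86 ± 0.54, or 1.17 without replicate 1 of ipsi_24h. By level, miR-328-5p was at 19.8, 9.03 and 10.0 CPM in ipsi_24h and at 8.49, 7.58 and 5.84 in contra_24h. Replicate 1 of ipsi_3h had 21 counts and a share of 0.46%, so a share of this size was not seen in ipsi_24h alone.

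For miR-1843a the 5p share was 85.43, 83.65 and 80.45% in ipsi_24h and 78.11, 79.53 and 77.14% in contra_24h, a log2 change of 0.47 ± 0.33. The highest share of all, 86.74%, was that of ipsi_12h replicate 3, the library in which miR-1843a-3p was also low. For miR-744 the shares were 98.39, 98.18 and 98.05% against 98.74, 98.46 and 98.60%, a log2 change of -0.36 ± 0.29. miR-342 had -0.46 ± 0.41 with overlapping shares, and miR-423 had -0.08 ± 0.24, the least of the 5. Thus 3 of the 5 did not overlap at 24 h, where 22.6% of all hairpins did not. In each of the 5 the arm with the lower log2 fold change had a lower mean share in ipsi_24h than in contra_24h. That is fixed by how a share is computed, so nothing is read from it.

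**Figure D4:**
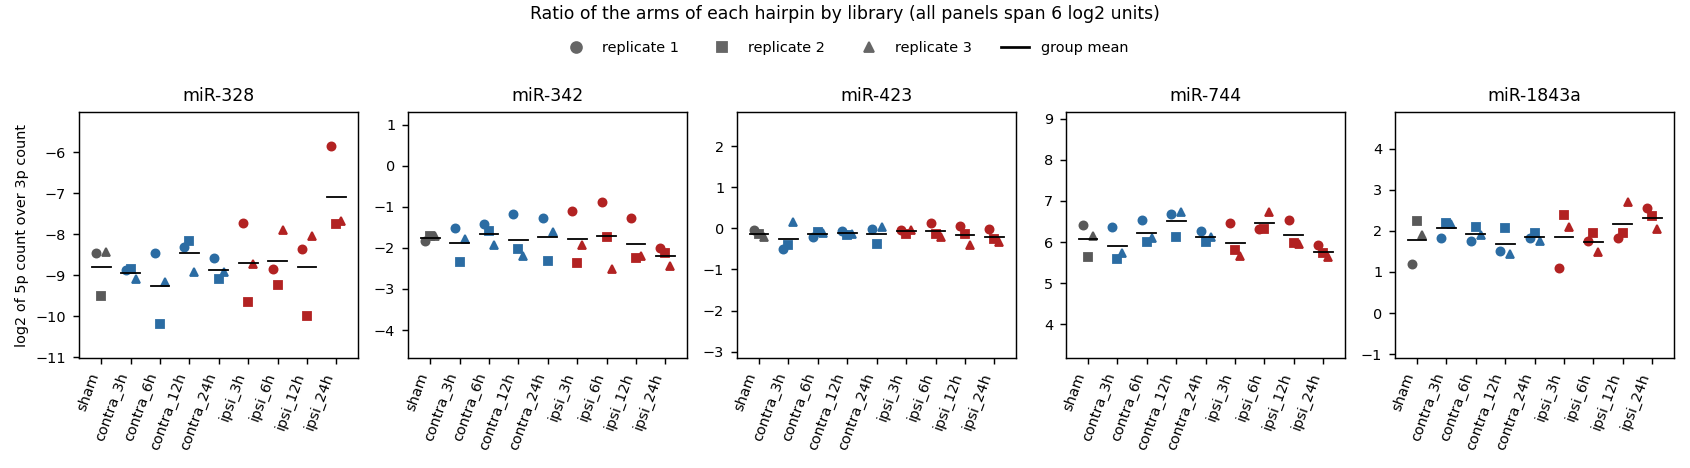
Log2 ratio of the 5p to the 3p count of each hairpin in every library, by group, with each panel spanning 6 log2 units. Marker shapes give the replicate number and bars the group mean. miR-423 stays near 0, miR-328 is higher in ipsi_24h, and replicate 1 (circles) lies above the others for miR-342.

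The arm ratio of some hairpins moved with the day of surgery. In an edgeR test of the replicate number over all 27 libraries, added after the values were seen, 3 of the 5 hairpins passed, where 15.6% of all 531 did. For miR-342 the 5p share had a median of 29.25% in replicate 1, 18.64% in replicate 2 and 20.62% in replicate 3 (n = 9 each). Its log2 ratio in replicates 2 and 3 differed from that in replicate 1 by -0.67 and -0.65 (edgeR adjusted p = 0.0083), and replicate 1 was above replicate 2 in 8 of 9 groups. It passed again with each group left out in turn (edgeR adjusted p from 0.00534 to 0.033).

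miR-328 (edgeR adjusted p = 0.0227) and miR-744 (0.0228) also differed between the days. miR-328 no longer passed without contra_6h, ipsi_3h or ipsi_24h, and miR-744 no longer passed without sham, contra_3h, contra_6h, ipsi_3h or ipsi_12h. miR-423 (0.74) and miR-1843a (0.134) did not pass.

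By level, 2 of the 9 differed between the days, against 25% of all entries. miR-342-3p was higher by 0.65 and 0.62 on the log2 scale in replicates 2 and 3 than in replicate 1 (edgeR adjusted p = 0.00311), while its partner miR-342-5p had -0.02 and -0.03 (0.975). miR-1843a-5p was higher by 0.54 in replicate 2 than in replicate 1, in 9 of 9 groups, and by 0.06 in replicate 3 (0.000162), while miR-1843a-3p had 0.12 and -0.16 (0.342).

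Across the 27 libraries the arms of a hairpin followed each other to different degrees. Pearson's r of log2 CPM, over libraries that share groups, days and scaling factors, was 0.893 for the arms of miR-423, 0.570 for miR-1843a, 0.403 for miR-744 and 0.317 for miR-342. The arms of different hairpins could lie closer than partners: miR-744-5p had r of 0.920 with miR-423-3p, 0.889 with miR-423-5p and 0.888 with miR-1843a-3p, its 3 nearest among 283 abundant entries, whose median r was 0.333. These correlations include the 24 h libraries on which the miRNAs were chosen, so high values among the 9 are partly fixed by the choice.

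The entries nearest to the leading arms were found by the same measure. For miR-328-3p they were miR-222-3p (0.949), let-7d-3p (0.888) and miR-92b-3p (0.885), and for miR-423-3p they were miR-744-5p (0.920), miR-409-3p (0.915) and let-7d-5p (0.912). For miR-1843a-5p they were miR-30e-3p (0.955), miR-410-3p and miR-411-5p (0.927 each). For miR-342-3p they were miR-29b-3p (0.829), miR-411-3p (0.826) and miR-140-3p (0.813), the weakest set of the 5.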

How the data were processed

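The authors deposited 1 table of raw counts per mature miRNA, whole numbers for 1842 entries in 27 libraries, and all columns were used. Novoalign and edgeR are named, without role or version, per the submitters' processing notes; the sources used here give neither the genome build nor how reads with several matches were assigned. Members and lists were chosen with earlier results of these data known.

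Counts were tested with edgeR 4.0.16 (R 4.3.3): TMM factors, robust quasi-likelihood F test, 1 mean per group over 27 libraries (18 residual degrees of freedom), filterByExpr, and Benjamini-Hochberg adjustment over 1470 entries at 0.05. Arm ratios were tested in edgeR on the 5p and 3p counts of a hairpin with a term per library, for 531 of 702 hairpins with at least 10 counts of each arm in 3 libraries. Correlations used log2(CPM + 0.5). Alternatives were DESeq2 1.42.0 and its size factors, total counts, TMM factors from entries of at least 100 CPM, no filter, a stricter arm filter, limma 3.58.1 on log2 arm ratios, only the groups compared, a replicate block, and each replicate left out. The scripts were tested on simulated data. Named miRNAs were the 9, miR-328-5p, miR-1843b, the 3 most correlated abundant entries per leading arm and the 4 most abundant of 42 other host-gene miRNAs.

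The series' design text states that replicate numbers mark distinct days of surgery. Libraries of the same number in different groups deviated together (mean r 0.207 over 108 pairs). Pairs of different numbers had a mean r of -0.103 (216 pairs). Deviations were taken from group means, which ties the second value to the first, so it is no separate contrast. No replicates were alike within counting noise (smallest chi-square per degree of freedom 11.2). Binomial intervals are exact, at 95%, and cover counting error only, since reads carry no molecular identifiers.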

Additional observations from a re-analysis of the deposited data

How the results depend on the processing

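The median log2 fold change of the 9 miRNAs at 24 h, -0.80, was -0.32 with total counts and -0.44 with TMM factors from entries of at least 100 CPM. With total counts miR-342-3p turned to 0.13 and miR-744-3p to 0.055. Leaving out 1 library of the comparison gave medians from -0.82 to -0.74. The number of the 9 past the threshold at 24 h then ran from 0 to 5. It was 0 without ipsi_24h replicate 1, where 3 entries in all were lower, and 5 without ipsi_24h replicate 3, where 23 were. Nothing is read from these counts, or from those at 24 h with the block, since the miRNAs were chosen on this contrast.

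With the replicate block the 24 h median was -0.80 and the number of the 9 past the threshold at 24 h went from 6 to 7, with miR-1843a-5p added, while the lower entries went from 21 to 96. Under the block 0 of the 9 passed at 3, 6 or 12 h, in any comparison with sham at those times or in the arm ratio tests. The block changed no other call of the 9 in these comparisons. The number called at 3, 6 and 12 h was 0 under every alternative run, and the 12 h median ran from -0.47 to -0.05 as replicates were left out. With 3 libraries a group the standard errors of 0.21 to 0.38 on the log2 scale limit which differences could pass. Counts of miR-328-5p, 3 to 29 a library, limit the miR-328 ratio, which the filter at 50 counts of each arm removed.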
